A study of Homo sapiens with 6 samples.

Results

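The genes described here are 10 immediate early genes chosen by name: FOS, FOSB, FOSL1, JUN, JUNB, JUND, EGR1, IER2, ATF3 and DUSP1. All 10 were matched by symbol among the 60709 genes of the count table. RNA sequencing of messenger RNA was done in SH-SY5Y, an established human neuroblastoma cell line. Its labels list 3 control samples, which received 10 uL of DMSO, and 3 samples given Nrf2-peptide-linked fumarate, 200 uL of a water solution, on top of the same DMSO. Cells were lysed after 5 h. Of the count columns, 3 carry numbers that the labels give to the control samples, and none carries a number of the peptide-treated samples. The values below therefore come from 3 control libraries, without a treated group to compare. The treated samples were not analysed here. That these are controls is known only through the column numbers, so a renumbered table could make them treated libraries.

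Immediate early genes are transcribed within minutes of a signal such as serum, a growth factor or stress, without new protein synthesis, and most of their mRNAs are short-lived. Their promoters are bound by the serum response factor SRF at CArG boxes and by CREB and ATF proteins at cyclic AMP response elements (CREs). AP-1 is a dimer of basic leucine zipper proteins. A JUN protein can pair with itself or with a FOS protein, whereas FOS proteins need a partner. EGR1 is a zinc finger factor from the same early response, and DUSP1 is a phosphatase that switches MAP kinases off again. In neurons and neuroblastoma cells these genes are widely used as readouts of recent signalling.

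The promoter stretches below are shown because EGR1, DUSP1 and JUND carried complete matches to the early response motifs, and FOS and FOSB carried the CRE core CGTCA near the start. Sequences are from RefSeq on GRCh38.p14, from 250 bases before to 50 bases after each start site, written 5′ to 3′ on the gene's own strand. Of the 10 genes, 9 had a promoter entry (ATF3 had 2, FOSL1 none). Capitals mark the motif. In EGR1 (chr5:138465329-138465478, plus strand) they mark 2 CArG boxes, the letters CC and GG around a run of A and T bases. In DUSP1 (chr5:172771298-172771335, minus strand) and JUND (chr19:18281800-18281837, minus strand) they mark the CRE TGACGTCA. In FOS (chr14:75278749-75278783, plus strand) and FOSB (chr19:45467921-45467955, plus strand) they mark TGACG, the reverse complement of that core.
EGR1: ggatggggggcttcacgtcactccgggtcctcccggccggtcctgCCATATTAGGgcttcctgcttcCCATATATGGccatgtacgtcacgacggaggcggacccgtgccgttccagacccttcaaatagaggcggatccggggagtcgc
DUSP1: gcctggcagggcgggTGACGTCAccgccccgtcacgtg
JUND: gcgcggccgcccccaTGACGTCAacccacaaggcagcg
FOS: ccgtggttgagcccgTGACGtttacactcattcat
FOSB: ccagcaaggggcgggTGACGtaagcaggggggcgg

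Both strands were searched. The CArG boxes of EGR1 began at -105 and -83 bases from the start. A CArG box was present in 1 of 9 genes and in 1.29% of 35116 promoters of the same length. The CRE was found in DUSP1 at -125 and in JUND at -200, that is in 2 of 9 genes, against 1.85% of all promoters. The core CGTCA, which lies within each CRE on both strands, occurred in 8 of 9 genes, all but ATF3, against 24.6% of all promoters. It was also common in most of the related lists described below. Among genes with a promoter entry, 3 of 4 other EGR and NAB genes and 3 of 5 other AP-1 subunits had it. So did 10 of 19 other immediate early genes, 6 of 12 SRF, partner and CREB genes, 7 of 16 MAP kinase genes and 2 of 7 other phosphatases. The core began at -64 in FOS, at -60 in FOSB, and at -135 and -66 in EGR1. Outside the CRE it also began at -172 and -111 in DUSP1 and at -86 in JUND. The cores of EGR1 and the DUSP1 core at -111 are left in lower case above. Neither the AP-1 site TGANTCA nor the EGR site GCGTGGGCG occurred in any of the 9, against 7.71% and 0.795% of all promoters. A match describes these letters only, and its absence says only that they are not in this window.

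**Figure D1:**
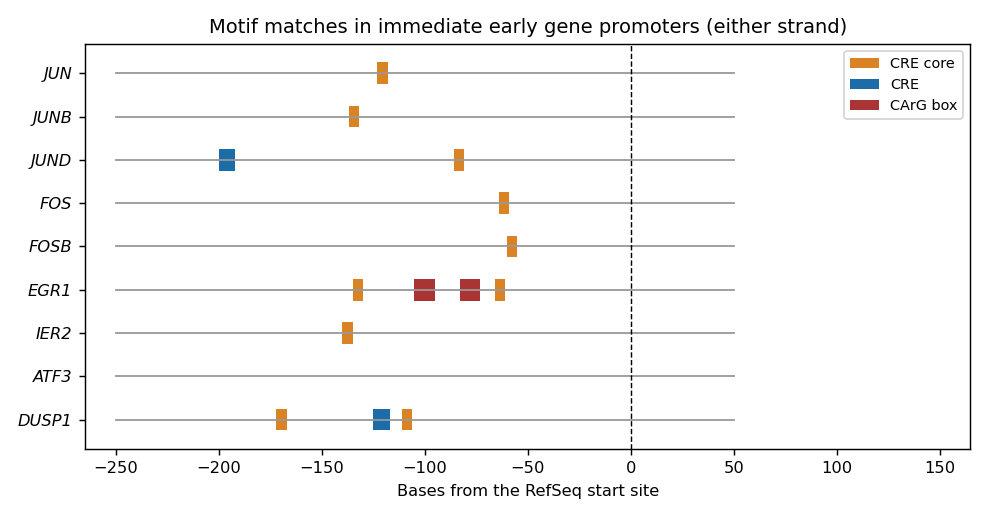
Motif matches in 9 promoters, by distance in bases from the RefSeq start site (dashed line), with cores inside a CRE drawn as the CRE. EGR1 has 2 CArG boxes, DUSP1 and JUND each have a CRE, and ATF3 has no match.

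The 3 libraries held 8887854 to 11397407 counts. Mitochondrially encoded genes held 3.83% to 4.11% of the counts in replicates 1 and 2 and 6.25% in replicate 3. Levels in replicate 3 also differed along transcript GC content, with a Spearman's rho of -0.73 across 10290 nuclear genes that share these libraries. Of 10 noradrenergic neuroblastoma markers, 9 had at least 10 counts in every library, with a summed level of 3585 to 3951 CPM (counts per 1000000 of the scaled library total). TH, the enzyme that starts catecholamine synthesis, had 0 counts in each library. Of 5 mesenchymal markers, 3 had at least 10 counts in every library, and the 5 summed to 203 to 229 CPM. FN1 alone held 173 to 201 CPM of this, and PRRX1 had 0 counts in each library. The 3 epithelial markers summed to at most 1.47 CPM, the 3 immune markers to at most 0.113 CPM and the 2 endothelial markers to at most 0.0875 CPM. In bulk RNA, fewer cells expressing a gene and less RNA per cell cannot be told apart. The labels do not say whether the 3 samples came from separate cultures, so the SDs measure only the spread between these samples, which may be technical.

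Of the 10 genes, 9 had at least 10 counts in every library, which 22.9% of all 60709 listed genes had, noncoding genes included. FOSB was the exception. Levels in CPM are given within each gene, and genes are compared only by CPM per kb of exon, where the length is the union of the gene's exons in GENCODE release 29.

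The JUN family was the most abundant of the group. JUND (ENSG00000130522.6, GRCh38 chr19:18279760-18281622), a JUN protein that many resting cells hold at a steady level, had 1736, 1626 and 1234 counts in replicates 1, 2 and 3. That is 162, 142 and 139 CPM, a mean of 148 ± 12.5 (SD, n = 3). Replicate 1 was the highest, and replicates 2 and 3 lay close together. JUNB (ENSG00000171223.6, chr19:12791496-12793315), an AP-1 subunit that activates less strongly than JUN at many sites, had 101, 94.7 and 87.1 CPM, a mean of 94.2 ± 6.97. JUN (ENSG00000177606.8, chr1:58780788-58784327), the founding AP-1 subunit and a substrate of the JNK kinases, had 105 and 100.02 CPM in replicates 1 and 2 and 81.2 CPM in replicate 3. Its mean was 95.4 ± 12.6 CPM. Replicate 3 stood apart below the other libraries. Within the family, JUND made up 50.2 ± 1.35% of the summed CPM per kb, JUNB 32.8 ± 0.509% and JUN 17.00 ± 1.16%. These shares kept the same order in each of the 3 libraries. JUN, JUNB and JUND are encoded by a single exon. JUNB shares 259 of its 1820 exon bases with HOOK2 on the opposite strand. Whether the counting used strand is not given in the sources used here, so reads in that stretch are uncertain.

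Of the FOS family genes listed here, FOS was the most abundant. FOSL2, described below, is not among them. FOS (ENSG00000170345.10, chr14:75278774-75282230), the subunit whose transcription serum induces fastest, had 275, 285 and 227 counts, or 25.7, 24.9 and 25.6 CPM. The mean was 25.4 ± 0.426 CPM, and the coefficient of variation (CV, the SD over the mean) of 1.68% was below the 6.20% that counting alone would give. FOSL1 (ENSG00000175592.9, chr11:65892049-65900573), which encodes FRA-1, had 25, 12 and 13 counts, a mean of 1.62 ± 0.657 CPM. Its CV was 40.6%, against 25.8% from counting alone. FOSB (ENSG00000125740.14, chr19:45467995-45475179) had 3, 6 and 6 counts, a mean of 0.494 ± 0.200 CPM, close to the 0.263 to 0.339 CPM that a count of 0 would allow. The CV of FOSB, 40.5%, was below the 47.1% from counting alone. That of FOSL1 was above counting, but it rests on 12 to 25 counts per library and was not tested. FOS made up 89.3 ± 3.11% of the summed CPM per kb of FOS, FOSB and FOSL1, a share that leaves out FOSL2. With FOSL2 counted, FOS held 51.0 ± 3.93% and FOSL2 42.9 ± 3.60%.

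**Figure D2:**
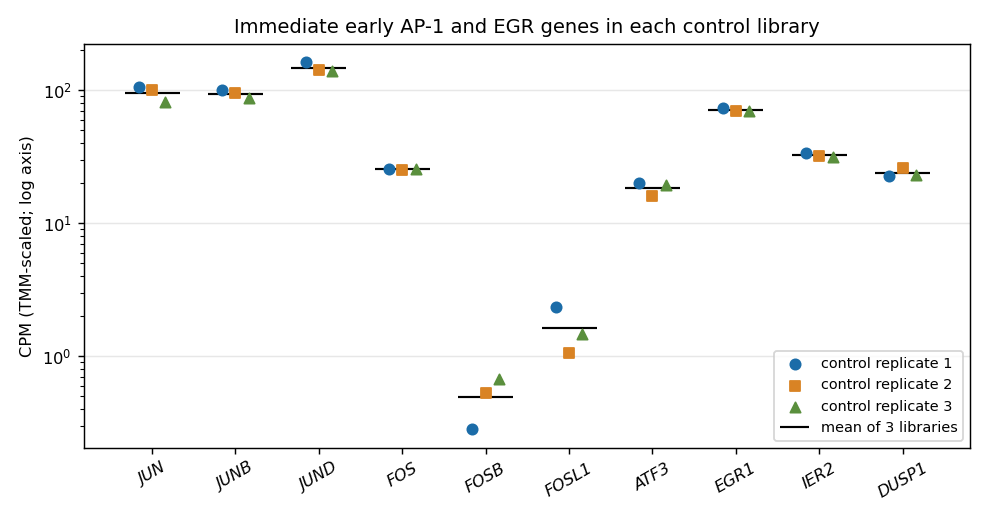
CPM of each gene on a log axis in the 3 control libraries (points), with their mean (bars). JUND, JUN and JUNB sit at 81.2 to 162 CPM in every library, and FOSB stays under 1 CPM.

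Per kb of exon, mRNA of the JUN family exceeded that of the FOS family 18.7-fold in replicate 1, 18.8-fold in replicate 2 and 16.5-fold in replicate 3, a mean ratio of 17.98 ± 1.27 (SD, n = 3). The size of this ratio depends on the transcript model. With the principal transcript of each gene as its length it was 12.3 ± 0.890, because the exon union of FOS, at 3238 bases, is longer than its principal transcript of 2158 bases. The family as listed leaves out FOSL2, which encodes FRA-2. FOSL2 had 508, 455 and 494 counts, and with it in the FOS family the ratio was 10.3 ± 1.34 and FOSL2 held 42.9 ± 3.60% of that family's CPM per kb, against 51.0 ± 3.93% for FOS. The lowest of these values in any library was 8.76, and replicate 3 was the lowest under each of these 3 definitions. With the GC trend of each library removed the ratios were 17.8, 18.3 and 17.8.

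EGR1 (ENSG00000120738.8, chr5:138465490-138469315) had 792, 802 and 623 counts, or 74.1, 70.2 and 70.4 CPM, a mean of 71.5 ± 2.19. The libraries lay close together, and the CV of 3.06% was below the counting error of 3.70%. EGR1 made up 97.0 ± 0.236% of the summed CPM per kb of the 4 EGR genes. EGR2 had 10, 12 and 14 counts, EGR3 20, 20 and 12, and EGR4 1 in each library. IER2 (ENSG00000160888.7, chr19:13150415-13154908), a nuclear protein of the early growth response, had 33.7, 32.1 and 31.6 CPM, a mean of 32.5 ± 1.07. Its libraries differed by less than counting error, with a CV of 3.28% against 5.50%. IER2 shares 946 of its 3072 exon bases (30.8%) with AC011446.2, an antisense gene that had 0 counts in each library. Because the strand setting of the counting is not given, reads in that stretch are uncertain, as for JUNB.

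ATF3 (ENSG00000162772.17, chr1:212565334-212620777), a stress-induced CREB/ATF-family factor that can pair with JUN, had 213, 184 and 173 counts. Its levels were 19.9, 16.1 and 19.5 CPM, a mean of 18.5 ± 2.10, with replicate 2 lowest. DUSP1 (ENSG00000120129.6, chr5:172768090-172771195) had 22.8, 25.9 and 23.1 CPM, a mean of 24.0 ± 1.69, with replicate 2 highest. The CV was 11.3% against 7.28% from counting for ATF3 and 7.07% against 6.42% for DUSP1. The spread of DUSP1 was thus near that of counting, and the contrast between the 2 genes in replicate 2 was not tested.

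On the CPM per kb scale the genes ran from JUND at 79.4 ± 6.71 through JUNB at 51.8 ± 3.83, JUN at 27.0 ± 3.55, EGR1 at 22.8 ± 0.698, DUSP1 at 11.9 ± 0.839, IER2 at 10.6 ± 0.347, FOS at 7.85 ± 0.132, ATF3 at 4.58 ± 0.520 and FOSL1 at 0.858 ± 0.348 to FOSB at 0.0890 ± 0.0361. Only JUN and EGR1, among neighbours in this order, had ranges over the libraries that overlapped. By principal transcript length, FOS moved to 11.8 ± 0.197 and IER2 to 11.1 ± 0.363, and the ranges of both overlapped that of DUSP1 at 11.9 ± 0.839. The order of IER2 and FOS is thus set by the transcript model, while DUSP1 had a higher mean than both by either length. Among 13868 genes that reached 10 counts in every library and a known length, JUND stood at percentile 97.3, JUNB at 95.1, JUN at 88.3 and EGR1 at 85.3. FOS stood at percentile 57.0, ATF3 at 41.8 and FOSL1 at 11.1.

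**Figure D3:**
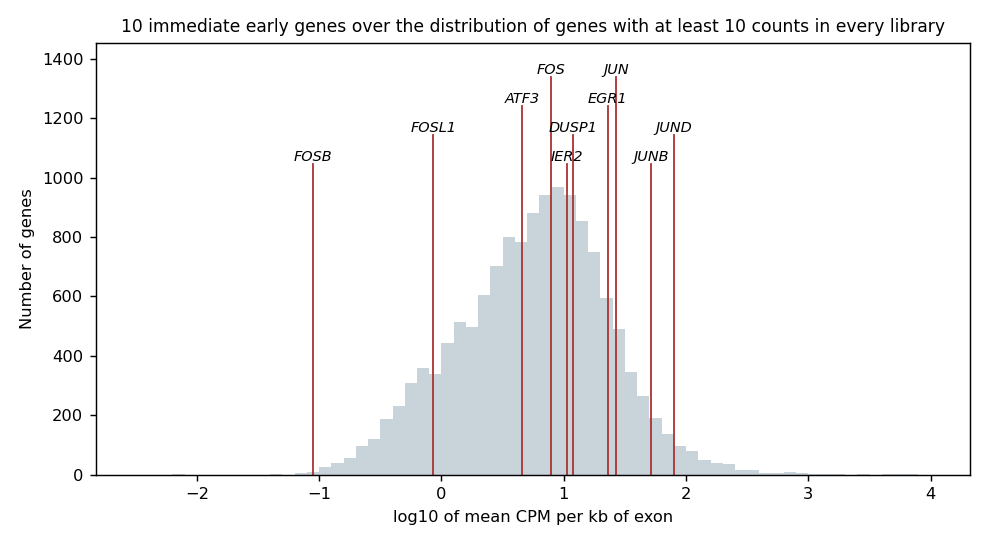
Distribution of mean CPM per kb of exon, on a log10 scale, over genes that reached 10 counts in every library (bars), with lines at the 10 immediate early genes. JUND and JUNB lie in the upper tail, FOS near the middle, and FOSB, which does not reach 10 counts, at the lower edge.

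Related genes were grouped by role. In each list, the number with at least 10 counts in every library stands against 22.9% of all listed genes, noncoding genes included. The share over coding genes alone is not given here. The median level over a list is given as the mean and SD over the 3 libraries, in CPM per kb of exon. It was 11.2 ± 0.389 for the 10 genes themselves and 6.15 ± 0.0671 over all genes that reached 10 counts in every library. Of 7 other AP-1 subunits, 5 had at least 10 counts in every library, with a list median of 1.66 ± 0.0820. ATF2, a stress-kinase substrate that pairs with JUN at CREs, was the highest at 12.3 ± 0.555. BATF, an AP-1 subunit of lymphoid cells, had 0 counts in each library, which in a single library allows a level of up to 0.339 CPM. The limit over the 3 libraries together is lower and was not computed.

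Of the EGR2, EGR3, EGR4, NAB1 and NAB2 genes, 4 of 5 reached 10 counts in every library. NAB2, a corepressor that binds EGR proteins and is itself induced by EGR1, was the highest at 32.6 ± 1.10 CPM per kb, with values of 33.5, 33.1 and 31.4. Its lowest library was above the highest of EGR1, 23.6. The list median was 0.391 ± 0.0345. Among 27 other immediate early genes, 22 had at least 10 counts in every library, and the list median was 5.74 ± 0.559. MCL1, a short-lived survival protein of the BCL2 family, was the highest at 108 ± 4.97 CPM per kb, above JUND. The group was uneven. NR4A2, which encodes an orphan nuclear receptor, had 1, 1 and 2 counts, and CCN2, a target of SRF and YAP signalling, had 0, 1 and 0.

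The upstream genes all reached the count minimum, some at low levels. All 13 genes for SRF, its partner factors and CREB reached 10 counts in every library, with a list median of 8.22 ± 0.174 CPM per kb. CRTC2, a CREB coactivator, was highest at 25.6 ± 1.47, and SRF itself stood at 19.98 ± 1.60. All 17 MAP kinases and MAP kinase kinases did so too, with a median of 9.35 ± 0.704. MAPK10, at 0.258 ± 0.0287, and MAPK13, at 0.509 ± 0.0333, had means below that of FOSL1, 0.858. MAP2K2, the ERK-activating kinase MEK2, had the highest mean at 20.7 ± 2.37, within the spread of the p38 gene MAPK11 at 20.1 ± 3.57. The 9 other MAP kinase phosphatases also all reached 10 counts in every library, with a median of 7.75 ± 0.544. DUSP4, a nuclear phosphatase of ERK, had the highest mean at 24.1 ± 1.59, but it led only through replicate 3. DUSP16, a phosphatase of JNK and p38, was at 23.3 and 23.9 in replicates 1 and 2, against 22.7 and 23.8 for DUSP4, and at 22.9 against 25.9 in replicate 3. DUSP4, DUSP16 and DUSP6 had means above that of DUSP1.

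**Figure D4:**
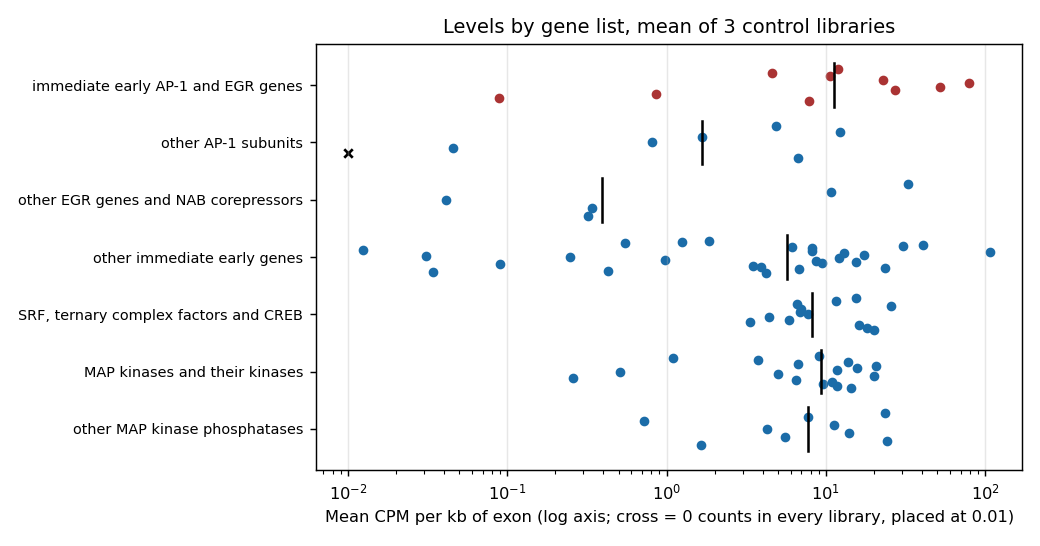
Mean CPM per kb of exon of each gene over 3 control libraries, on a log axis, by list, with black bars at the list medians. The 10 genes have a median of 11.2, and the list of 27 other immediate early genes spreads from CCN2 at the low end to MCL1 at 108.

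Between libraries, the 10 genes had a median CV of 7.92%, against 8.69% over all genes that reached 10 counts in every library. The order reversed with the GC trend of each library removed, at 7.39% against 6.42%, and without replicate 3, at 6.76% against 4.91%. The median of the mean counts was 299 for the 10 genes and 323 for the others, but FOSB is below the 10 counts that the others reach. The CV was below that expected from counting in 4 of the 10 genes, FOS, FOSB, EGR1 and IER2. The share over all genes is not given here. With the GC trend removed, EGR1 had 4.35% against 3.70% from counting and IER2 6.09% against 5.50%, both above counting. FOS, at 4.00%, and FOSB, at 45.2%, stayed below it. Of the 8 genes that reached 100 counts in every library, JUN had 13.2% against 3.24% from counting, JUND 8.45% against 2.58% and JUNB 7.40% against 3.24%, the widest gaps in these 8. With the GC trend removed, the CV was 7.34% for JUN, 7.43% for JUND and 3.38% for JUNB. JUNB was then near counting, and ATF3, at 11.2% against 7.28%, had a wider gap than JUNB.

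Replicate 3 lay below both other libraries in 4 of the 9 genes with at least 10 counts, namely JUN, JUNB, JUND and IER2, and above both in none. Over all genes it was below both in 41.8% and above both in 38.6%. The share below is thus near the background, while the 0 of 9 above is under it. That difference was not tested. The genes' transcripts are GC-rich, with a median of 57.2% GC against 48.4% over all genes with at least 10 counts, and 9 of 10 lay above that median. ATF3, at 46.7% GC, was the exception. With the GC trend of each library removed, replicate 3 was below both others in 1 of 9 genes, JUN, and above both in 5, against 36.4% and 38.1% of all genes. The difference of JUN in replicate 3 from the mean of the others was -0.34 on the log2 scale, and -0.19 with the trend removed. That of JUND went from -0.13 to 0.16, a change of sign, and that of FOS from 0.02 to 0.10. The part of the mitochondrial share and of depth in these differences was not tested.

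**Figure D5:**
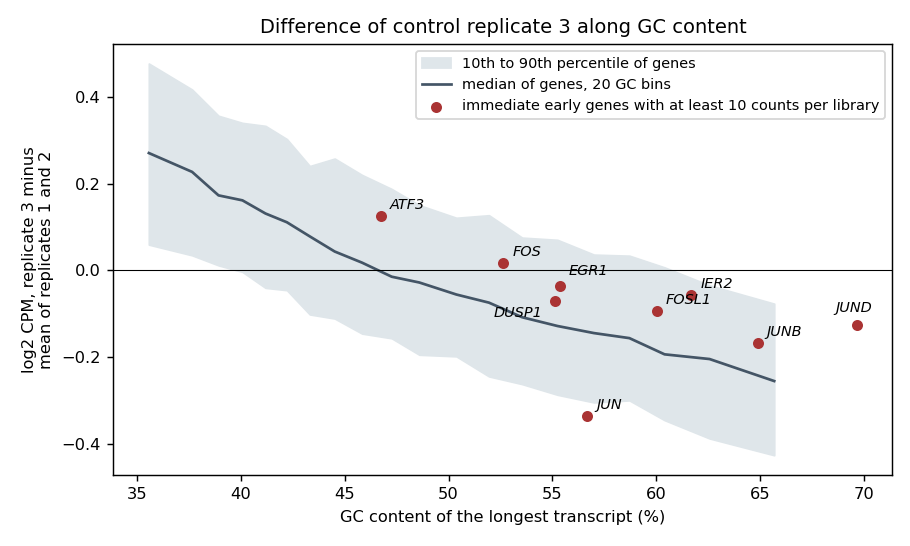
Difference in log2 CPM between control replicate 3 and the mean of replicates 1 and 2 against the GC content of the longest transcript, for 9 genes (red), with the median and the 10th to 90th percentile of genes in 20 GC bins. JUN, at -0.34, lies below the band, and JUND, at -0.13, lies to the right of the last bin.

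The genes had no single pattern over the 3 libraries. For the 8 that reached 100 counts in every library, the mean log2 deviations were 0.07, -0.01 and -0.05 in replicates 1, 2 and 3, an average of unlike profiles. The nearest of 9918 other genes to this average were NANS, RAD51D and FN3KRP, at Euclidean distances of 0.0018, 0.0024 and 0.0024. The 8 genes themselves lay a median of 0.0844 from it, and 20.8% of the other genes lay as near or nearer.

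Gene structure, position and 3′ UTR motifs did not enter the choice of the genes. Of the 10, 4 have a single exon in the principal transcript (JUN, JUNB, JUND and IER2), against 5.95% of 19659 coding genes. FOSB, JUNB, JUND and IER2, 4 of the 10, lie on chromosome 19, which holds 7.27% of these coding genes, and JUNB and IER2 are 357.1 kb apart. The AU-rich pentamer ATTTA, a mark of unstable mRNAs, occurred in the 3′ UTR of 9 of 10 genes, all but IER2, against 64.4% of 18928 coding genes. Its density was 2.24 per kb of 3′ UTR in the 10 genes and 2.26 per kb in all. The longer AU-rich motif TTATTTATT was found in FOS, with 1 match, and DUSP1, with 2 matches, against 7.51% of coding genes. The pentamer occurred 5 times in FOS, 4 in DUSP1, 3 each in JUN, FOSB and ATF3, 2 in JUNB and 1 each in JUND, EGR1 and FOSL1.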

How the data were processed

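SH-SY5Y mRNA was sequenced in 6 labelled samples, and the deposited table holds whole-number read counts per Ensembl gene. The submitters' processing notes name fastp 0.21.1, STAR 2.7.7a, featureCounts and GRCh38. The annotation release, strand setting and handling of shared reads are not given in the sources used here, although the library kit is stranded, per the labels' protocols. Columns numbered 4, 5 and 6 carry the numbers of control replicates 1, 2 and 3. The other 3 columns match no label and were not used, so the planned edgeR test of peptide against control was not run. A broken entry of ANK2 was left out.

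Counts were scaled to CPM (per 1000000) with TMM factors over all genes (edgeR 4.0.16, R 4.3.3) and divided by exon length from GENCODE 29, which may differ from the authors' annotation. Symbols matched 60436 of 60709 genes. The GC trend was the median log2 deviation in 50 bins over nuclear genes averaging 100 or more counts. Scaling, GC removal and the CV were tested on simulated data. Counting errors come from counts alone, since no molecular identifiers are stated, and a count of 0 was taken to allow 3. Tables were made with Python 3.11.15, numpy 2.4.6 and pandas 2.3.3.

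The 10 genes and the lists were chosen with earlier results of these data known. By rule, the text names the 10 genes, the highest gene of each list by CPM per kb, list genes at 0 in every library, and the 3 genes nearest in pattern. FOSL2, EGR2, EGR3, EGR4, NR4A2, CCN2, SRF, DUSP6, DUSP16, MAPK11, HOOK2 and AC011446.2 were named after their values were seen. So were MAPK10, MAPK13, FN1 and PRRX1. The distance that the 8 genes keep from their own average was also added after the data were seen. Alternatives were RLE factors, library totals, no mitochondrial genes, GC trend removed, other lengths, other count minimums, and each replicate left out.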

Additional observations from a re-analysis of the deposited data

How the results depend on the processing

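No paired analysis was possible because counts were matched to the control samples only, and no setting of the comparison with peptide-treated samples was run. The ratio of the JUN to the FOS family, 17.98, was 12.3 by longest transcript length, 12.3 without division by length (summed CPM), 12.3 by principal transcript length and 10.3 with FOSL2 included. The last 2, and removal of the GC trend for the ratio, were chosen after seeing the data. Leaving out 1 replicate gave 17.6 to 18.7. The median CV of the 10 genes, 7.92%, was 7.495% with RLE factors, 7.39% with the GC trend removed and 6.76% to 7.54% with 1 replicate left out. Over all genes, the median CV of 8.69% became 6.42% with the GC trend removed and 4.91% without replicate 3, so the 10 genes were above all genes in these settings and below them in the main one. The count of genes lowest in replicate 3, 4, was 1 with the trend removed, and the count of genes highest there, 0, was 1 with RLE factors and 5 with the trend removed. The number with at least 10 counts in every library stayed at 9 in each fit without a replicate, and 8 reached 100 counts. List medians over genes with at least 10 counts were 4.84 CPM per kb for other AP-1 subunits, 5.59 for EGR and NAB genes and 8.18 for other immediate early genes, which follows from dropping the lowest genes. Without mitochondrial genes, the medians were 1.74 for other AP-1 subunits and 8.62 for SRF, its partners and CREB. In that setting 3 of 10 single-gene values moved by more than 1 SD, those of FOS, EGR1 and IER2, since a smaller total raises all genes. Leaving out 1 of 3 libraries cannot move a mean by 1 SD, so it says little about single-gene stability. Depth limits FOSB and FOSL1 most.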
